A study of Drosophila melanogaster with 18 samples.

Results

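Microtubules are hollow filaments built from dimers of alpha- and beta-tubulin, and Drosophila melanogaster makes each subunit from a small family of genes, the tubulin isotypes. The genes described here were the 4 alpha-tubulin genes alphaTub84B, alphaTub84D, alphaTub85E and alphaTub67C and the 4 beta-tubulin genes betaTub56D, betaTub60D, betaTub85D and betaTub97EF. They were chosen by symbol alone: every entry of the gene and isoform tables, at all 3 stages, whose gene field held a listed symbol after splitting at commas. This gave 8 of 14542 gene entries and 10 of 32574 isoform entries. 1 of the 8 gene entries was merged, holding betaTub85D together with its neighbour Task7.

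RNA of whole animals was sequenced in 2 genotypes. One was trans-heterozygous for the Nxt1 alleles DG05102 and Z2-0488, with the strain label yw. It was compared with w1118, a white-eyed laboratory strain. Nxt1 is a subunit of the receptor that carries messenger RNA through the nuclear pore. Both genotypes were collected at 3 stages around pupariation, the wandering larva, the stationary larva and the white prepupa, with 3 samples for each of 6 groups. Gut colour after feeding on dyed food separated wandering from stationary larvae. Since both the Nxt1 alleles and the strain label differ between the genotypes, the effects of the alleles and of the background cannot be told apart. The labels give neither the sex of the animals nor how many went into a sample, nor do they describe the lesions of the alleles.

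Levels are FPKM, sequenced fragments per kilobase of transcript after scaling for library size, and the authors' deposited tables hold 1 pooled FPKM per genotype and stage. No spread over the 3 samples can therefore be given, and the depth of each sample is unknown. Each stage was scaled on its own by the authors, so levels at different stages do not share a scale. A gene was called higher or lower in the trans-heterozygotes where the authors' test was completed and its adjusted p-value, q, was at most 0.05. The log2 fold change is that of the trans-heterozygotes over w1118, and the error after it is a standard error derived from the authors' test statistic. Over all tested genes, the median log2 fold change was -0.0033, -0.044 and -0.048 at the 3 stages in turn. Nxt1 itself had 9.28 FPKM in trans-heterozygotes against 11.6 FPKM in w1118 wandering larvae, 15.5 against 11.5 FPKM in stationary larvae and 17.9 against 10.6 FPKM in prepupae. It did not pass the test at any stage in the authors' deposited tables (q = 0.998, 0.788 and 0.480).

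The isotypes differ in where they are made. alphaTub84B, near-identical to alphaTub84D, and betaTub56D are the general isotypes of most cells. betaTub85D is the beta-tubulin of the male germline after the mitotic divisions, used in the meiotic spindle and the sperm axoneme. betaTub60D belongs to the mesoderm, where developing muscle makes it, and it is induced by the moulting hormone ecdysone in cultured cells. alphaTub85E has been described in muscle attachment sites, chordotonal organs and the support cells of the testis, alphaTub67C in the ovary and early embryo, and betaTub97EF in gut and haemocytes.

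Of the 8 tubulin genes, 7 were tested at every stage, and betaTub85D and alphaTub85E were called lower in the trans-heterozygotes at all 3 stages. That is 2 of 7 tested genes at each stage, against 9.49%, 13.2% and 12.9% of all genes called lower at the wandering, stationary and prepupal stages. Called lower at all 3 stages were also 2 of the 7, against 8.06% of the 10284 genes tested at every stage. The other 5 tested isotypes were not called at any stage, and no isotype was called higher, against 2.29%, 4.7% and 4.03% of all genes called higher at the 3 stages in turn. alphaTub67C was too low for the authors' test.

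The order of the levels was nearly the same in both genotypes. alphaTub84B (chromosome arm 3R, 2912321 to 2914561; coordinates are those of the deposited tables, counted from 1, whose genome build the sources used here do not name) was the highest, among the 70 highest of all 14542 entries in each genotype and stage. It had 1228 FPKM in trans-heterozygotes and 1122 FPKM in w1118 wandering larvae, 1159 and 1293 FPKM in stationary larvae, with 1435 and 1563 FPKM in prepupae. betaTub56D (2R, 15334824 to 15339122) came next, then betaTub60D (2R, 20193405 to 20200626). In w1118 betaTub85D held the fourth place at every stage, followed by alphaTub84D, whereas in the trans-heterozygotes alphaTub84D stood above betaTub85D at every stage. Likewise betaTub97EF stood above alphaTub85E in the trans-heterozygotes and below it in w1118 at every stage. alphaTub67C (3L, 9674368 to 9676470) was last everywhere, between 0.0373 and 0.184 FPKM. Since the pooled values have no spread over samples, neighbours in this order cannot be tested against each other.

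**Figure D1:**
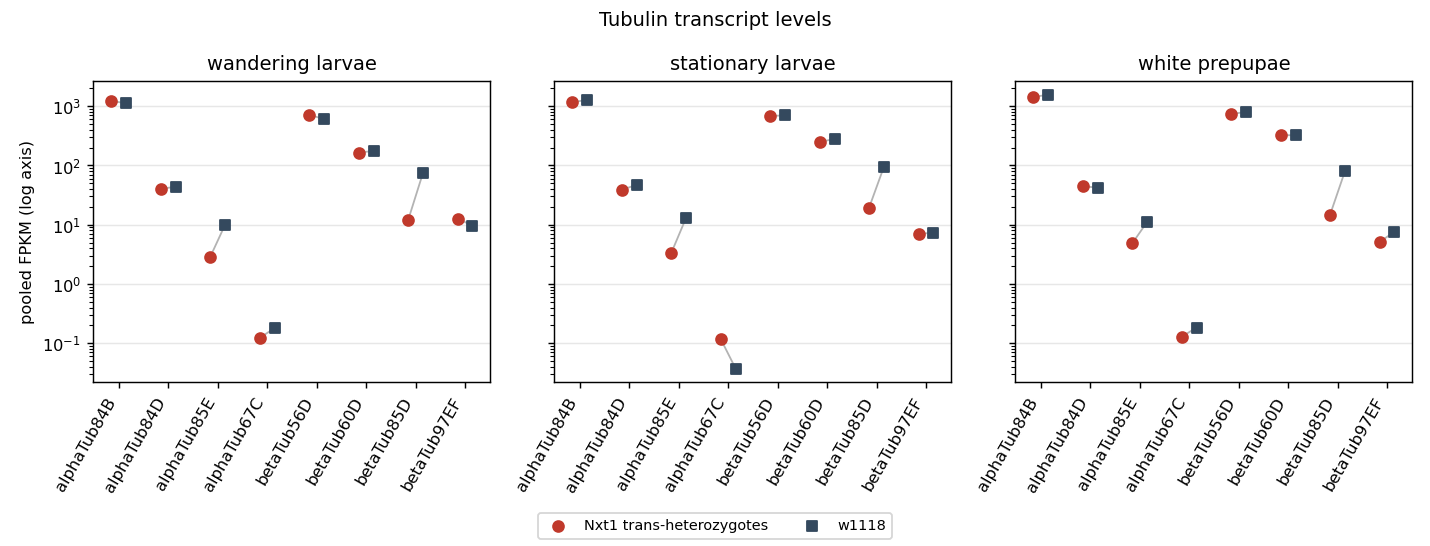
Pooled FPKM (log axis) of the 8 tubulin genes in Nxt1 trans-heterozygotes (circles) and w1118 (squares) at each stage, 1 value per genotype and stage with no replicate spread, joined by a line. The circle lies well below the square for alphaTub85E (2.90 against 10.1 FPKM in wandering larvae) and betaTub85D (12.0 against 75.0 FPKM), and the symbols lie near each other for the other genes above 1 FPKM.

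betaTub85D, the male germline isotype, had the largest difference of the 8 chosen isotypes. Its entry (3R, 5234105 to 5238015, shared with Task7) had 12.0 FPKM in trans-heterozygotes against 75.0 FPKM in w1118 wandering larvae. In stationary larvae the values were 19.5 FPKM in trans-heterozygotes and 95.5 FPKM in w1118, and in prepupae 14.8 and 80.0 FPKM. The entry thus kept 16.0%, 20.4% and 18.5% of its w1118 level at the 3 stages in turn, so that it was 6.25-, 4.90- and 5.40-fold lower. The log2 fold changes in the authors' deposited tables were -2.64 ± 0.27, -2.29 ± 0.24 and -2.43 ± 0.24, with a q listed as 0 at each stage. In w1118 the entry ranked between 1007 and 1191 of all 14542 entries from the top, and in the trans-heterozygotes between 4102 and 5394.

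The merged entry was almost entirely betaTub85D. Split by isoform, betaTub85D had 10.8 FPKM in trans-heterozygotes and 73.9 FPKM in w1118 wandering larvae, 18.3 and 94.7 FPKM in stationary larvae, with 13.4 and 78.6 FPKM in prepupae. The Task7 isoforms together had 1.22 and 1.03 FPKM in wandering larvae, 1.22 and 0.780 FPKM in stationary larvae, with 1.39 and 1.36 FPKM in prepupae. betaTub85D therefore made up 89.8% to 93.7% of the entry in the trans-heterozygotes and 98.3% to 99.2% in w1118. The log2 fold changes of its own isoform were -2.78, -2.37 and -2.55 in the authors' deposited tables, somewhat larger than those of the merged entry. The authors' test gave no result for this isoform, whose status was listed as low data, so the call of betaTub85D rests on the merged entry. Why an isoform at this level had that status was not tested. Without merged entries only 1 of the isotypes, alphaTub85E, was called at each stage.

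alphaTub85E (3R, 5556943 to 5558987) was the other isotype that fell. It had 2.90 FPKM in trans-heterozygotes against 10.1 FPKM in w1118 wandering larvae, 3.36 against 13.2 FPKM in stationary larvae, with 4.87 against 11.2 FPKM in prepupae. The log2 fold changes in the authors' deposited tables were -1.80 ± 0.43 (q = 0.000473), -1.97 ± 0.40 (q = 1.09e-05) and -1.20 ± 0.35 (q = 0.00585). The trans-heterozygotes kept 28.7%, 25.5% and 43.6% of the w1118 level. Its single isoform was also called lower at each stage in the authors' deposited isoform tables (q = 0.000744, 1.88e-05 and 0.00804), where 6.61%, 9.1% and 9.18% of all isoforms were called lower. It was the only isotype with a called isoform.

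The general isotypes stayed close to their w1118 levels. For alphaTub84B the log2 fold changes in the authors' deposited tables were 0.13 ± 0.23, -0.16 ± 0.22 and -0.12 ± 0.16 at the 3 stages in turn (q = 0.978, 0.784 and 0.731). The 95% intervals of its ratio, trans-heterozygotes over w1118, ran from 0.805 to 1.49, from 0.661 to 1.21 and from 0.743 to 1.13. betaTub56D had 716 FPKM in trans-heterozygotes and 607 FPKM in w1118 wandering larvae, 682 and 703 FPKM in stationary larvae, with 737 and 802 FPKM in prepupae. Its log2 fold changes of 0.24 ± 0.21, -0.04 ± 0.21 and -0.12 ± 0.15 in the authors' deposited tables did not pass the test (q = 0.763, 0.957 and 0.709). A ratio as low as that of betaTub85D or alphaTub85E lay outside the 95% interval of alphaTub84B and betaTub56D at each stage.

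alphaTub84D (3R, 3356478 to 3358454) was far less abundant than alphaTub84B. It had 40.6 FPKM in trans-heterozygotes and 43.5 FPKM in w1118 wandering larvae, 38.9 and 47.1 FPKM in stationary larvae, with 44.4 and 42.5 FPKM in prepupae. The log2 fold changes in the authors' deposited tables were -0.10 ± 0.21, -0.28 ± 0.21 and 0.06 ± 0.18 (q = 0.997, 0.481 and 0.907). alphaTub84B stood 30.2-fold above alphaTub84D in trans-heterozygotes and 25.8-fold in w1118 wandering larvae, 29.8- and 27.4-fold in stationary larvae, and 32.4- and 36.8-fold in prepupae. How the authors' counting shared reads between these near-identical genes is not given in the sources used here, so the split between them is uncertain.

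betaTub60D, the mesodermal isotype, was not called at any stage. It had 165 FPKM in trans-heterozygotes and 175 FPKM in w1118 wandering larvae, 249.9 and 279.8 FPKM in stationary larvae, with 328 and 321 FPKM in prepupae. The log2 fold changes in the authors' deposited tables were -0.08 ± 0.20, -0.16 ± 0.20 and 0.03 ± 0.14, and the smallest q was 0.735. The 95% intervals of the ratio ran from 0.720 to 1.24, from 0.681 to 1.17 and from 0.844 to 1.23. Relative to betaTub56D within the same library pool, which needs no common scale between stages, betaTub60D stood at 0.231 in trans-heterozygotes and 0.289 in w1118 wandering larvae, at 0.366 and 0.398 in stationary larvae, and at 0.444 and 0.400 in prepupae. The ratio was thus higher at each later stage in the trans-heterozygotes, and in w1118 it was about level between stationary larvae and prepupae.

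Muscle markers were called higher in part while betaTub60D was not called. Of 16 tested muscle markers, 6 were called higher in wandering trans-heterozygotes, 12 in stationary larvae and 3 in prepupae, while 0, 1 and 1 were called lower. Among all tested genes 2.29%, 4.7% and 4.03% were called higher and 9.49%, 13.2% and 12.9% lower. The median log2 fold changes of the list were 0.54, 1.58 and 0.12, and its summed FPKM was 6071 in trans-heterozygotes and 5466 in w1118 wandering larvae, 3507 and 2995 in stationary larvae, and 1662 and 1928 in prepupae. Zasp66, a Z-disc protein gene and the most abundant of the list, was called lower in stationary larvae (722 FPKM in trans-heterozygotes, 1555 FPKM in w1118) and in prepupae (760 and 1108 FPKM). TpnC73F, a troponin C gene, was not called at any stage and had 424 FPKM in trans-heterozygotes and 386 FPKM in w1118 stationary larvae. Mf, a myofilament protein gene, was called higher in stationary larvae, at 444 FPKM in trans-heterozygotes and 235 FPKM in w1118.

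betaTub97EF (3R, 23792730 to 23814106) had 12.7 FPKM in trans-heterozygotes and 9.62 FPKM in w1118 wandering larvae, 7.04 and 7.29 FPKM in stationary larvae, with 5.11 and 7.60 FPKM in prepupae. The log2 fold changes in the authors' deposited tables were 0.40 ± 0.49, -0.05 ± 0.36 and -0.57 ± 0.35 (q = 0.915, 0.972 and 0.326). The intervals of its ratio were wide, from 0.680 to 2.58, from 0.596 to 1.57 and from 0.417 to 1.09, so a ratio as low as that of alphaTub85E in prepupae was not outside the last of them. For the midgut and haemocyte lists the background was 2.29%, 4.7% and 4.03% of all tested genes called higher and 9.49%, 13.2% and 12.9% lower. The midgut list held 5, 6 and 2 genes called higher and 1, 1 and 0 called lower of 9, 9 and 7 tested, with median log2 fold changes of 1.49, 2.86 and 0.26. Its most abundant members were Jon25Biii, a serine protease gene with 576 FPKM in trans-heterozygotes and 79.0 FPKM in w1118 stationary larvae (called higher at all 3 stages), the merged alphaTry entry, which was not called at any stage (359 and 276 FPKM in stationary larvae), and Amy-p, an amylase gene (132 and 15.4 FPKM, called higher in both larval stages). The haemocyte list held 4, 3 and 2 genes called higher and 0, 2 and 0 called lower of 9, 9 and 8 tested, with median log2 fold changes of 0.43, 0.45 and 0.02. Of its most abundant members, the phagocytic receptor gene nimC2 was called lower in stationary larvae, at 118 FPKM in trans-heterozygotes and 218 FPKM in w1118, while He (97.2 and 69.6 FPKM) and the GATA factor gene srp (39.0 and 57.9 FPKM) were not called. The part of gut and haemocyte content in the values of betaTub97EF was not tested.

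alphaTub67C, the maternal isotype, had 0.123 FPKM in trans-heterozygotes and 0.181 FPKM in w1118 wandering larvae, 0.117 and 0.0373 FPKM in stationary larvae, with 0.129 and 0.184 FPKM in prepupae. At these levels no difference was detectable. Of 4, 6 and 5 tested oocyte and early germline markers, 1 was called lower and 1 higher at each stage. Among all tested genes 9.49%, 13.2% and 12.9% were called lower and 2.29%, 4.7% and 4.03% higher. orb, a regulator of translation in the germline, had 4.76 FPKM in trans-heterozygotes and 24.8 FPKM in w1118 stationary larvae and was called lower at all 3 stages. aub, a Piwi-family gene of the germline named here after its values were seen, had 4.39 FPKM in trans-heterozygotes and 1.23 FPKM in w1118 stationary larvae and was called higher at all 3 stages. Neither vas (5.97 and 2.84 FPKM in stationary larvae) nor gcl (11.8 and 12.6 FPKM) was called, and osk was listed at 0 in w1118 wandering and stationary larvae.

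**Figure D2:**
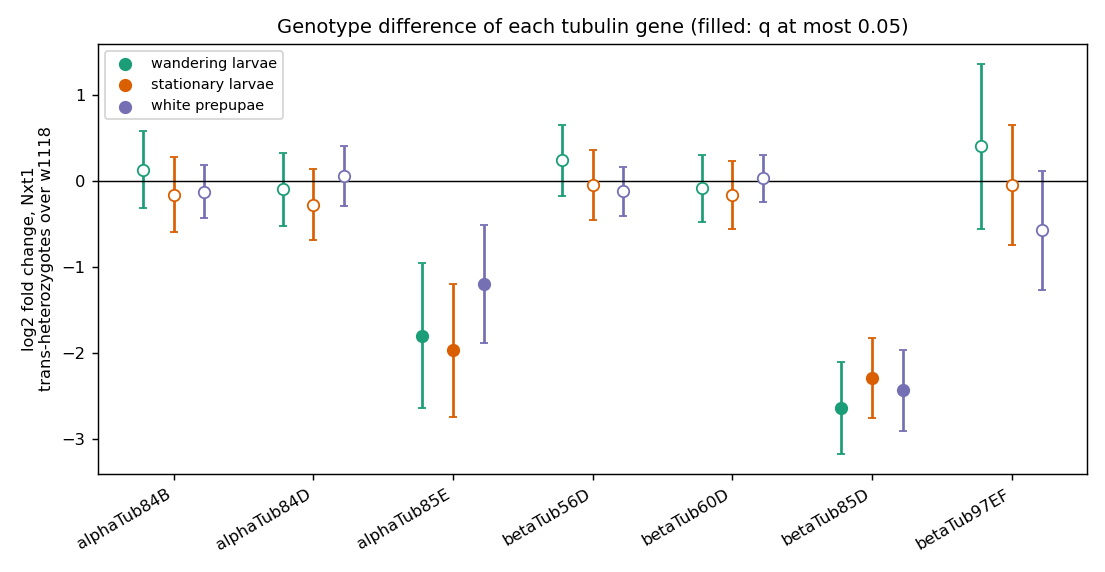
log2 fold change (Nxt1 trans-heterozygotes over w1118, from the authors' deposited tables) of the 7 tested tubulin genes, 1 point per stage, filled where q was at most 0.05, with bars for the 95% interval derived from the test statistic. The 3 points of betaTub85D lie between -2.64 and -2.29 and those of alphaTub85E between -1.97 and -1.20, whereas the bars of the other 5 genes cross 0 at every stage.

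The genotype differences were compared between stages by a two-sided normal test of the difference of the log2 fold changes, adjusted by the Benjamini-Hochberg method over all genes tested at both stages. The test passed for 0 of the 7 isotypes in each of the 3 pairs of stages, against 0.66%, 0.861% and 1.06% of all genes. No isotype had an unadjusted p under 0.05 either, since the smallest were 0.330, 0.144 and 0.106. For betaTub85D the log2 fold change differed by 0.35 ± 0.36 between stationary and wandering larvae, by -0.14 ± 0.34 between prepupae and stationary larvae and by 0.21 ± 0.36 between prepupae and wandering larvae. For alphaTub85E the last 2 differences were 0.77 ± 0.53 and 0.60 ± 0.55, each larger than its standard error and neither passing the test. Among the 7 isotypes the largest difference was that of betaTub97EF between prepupae and wandering larvae, -0.98 ± 0.60.

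In the composition of the beta-tubulin transcripts, betaTub85D had a smaller share and betaTub56D a larger one in the trans-heterozygotes at every stage. betaTub85D made up 1.32% of the summed beta-tubulin FPKM in trans-heterozygotes against 8.65% in w1118 wandering larvae, 2.03% against 8.80% in stationary larvae, and 1.37% against 6.61% in prepupae. betaTub56D made up the bulk, 79.0% in trans-heterozygotes and 70.0% in w1118 wandering larvae, 71.2% and 64.8% in stationary larvae, and 68.0% and 66.2% in prepupae. The share of betaTub60D was 18.3% and 20.2%, then 26.1% and 25.8%, then 30.2% and 26.5%, in trans-heterozygotes and w1118 at the 3 stages in turn. These shares come from pooled values and carry no error. The sums hold only the 4 listed beta-tubulin genes. They leave out CG32396, a further beta-tubulin gene described below, at 7.43, 9.73 and 6.50 FPKM in w1118 at the 3 stages in turn. A larger share of betaTub56D does not show more betaTub56D RNA, since the shares of 1 family add up to the whole.

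**Figure D3:**
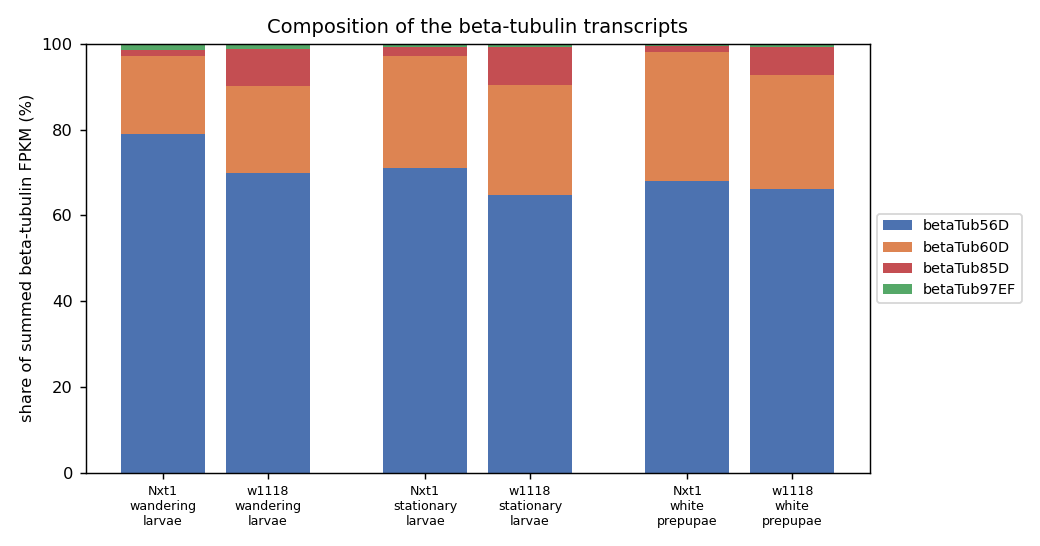
Share (%) of each gene in the summed FPKM of the 4 listed beta-tubulin genes, from pooled values per genotype and stage. Nxt1 trans-heterozygotes are left of w1118. The betaTub85D segment shrinks to between 1.32% and 2.03% in the trans-heterozygotes, against 6.61% to 8.80% in w1118, and betaTub56D and betaTub60D fill nearly all of the rest.

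Among the 4 listed alpha-tubulins, alphaTub84B made up 96.6%, 96.5% and 96.7% of the summed FPKM in trans-heterozygotes and 95.4%, 95.5% and 96.7% in w1118. alphaTub85E accounted for 0.228% in trans-heterozygotes and 0.858% in w1118 wandering larvae, 0.280% and 0.973% in stationary larvae, and 0.328% and 0.690% in prepupae. It was thus a minor part of the alpha-tubulin transcripts in both genotypes. The summed alpha-tubulin FPKM over the summed beta-tubulin FPKM was 1.40 in trans-heterozygotes and 1.36 in w1118 wandering larvae, 1.25 and 1.25 in stationary larvae, and 1.37 and 1.34 in prepupae.

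At the isoform level, every isotype but alphaTub67C had 1 isoform at 1 FPKM or more. The minor isoform of betaTub56D was listed at 0 in both genotypes as larvae and had 0.522 FPKM in trans-heterozygotes and 0.462 FPKM in w1118 prepupae. The minor isoform of betaTub97EF had 0.339 and 0.385 FPKM in wandering larvae, 0.558 FPKM in trans-heterozygotes against a listed 0 in w1118 stationary larvae, and a listed 0 in both genotypes as prepupae. The main isoform of betaTub97EF had 12.4 and 9.23 FPKM, 6.48 and 7.29 FPKM, and 5.11 and 7.60 FPKM at the 3 stages in turn, and was not called. Promoter, splicing and coding-sequence usage could be tested by the authors in only 1 case, the promoter usage of the betaTub85D and Task7 entry in stationary larvae. There the usage score, a square-rooted Jensen-Shannon divergence that is 0 for equal usage, was 0.111 in the authors' deposited table and did not pass (q = 0.314).

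The fall of betaTub85D came with that of other male germline transcripts. In whole animals, fewer cells of a type and less RNA per cell cannot be told apart. Of 34 tested testis germline markers, 25, 24 and 24 were called lower at the 3 stages in turn, and 0 were called higher. Among all tested genes 9.49%, 13.2% and 12.9% were called lower and 2.29%, 4.7% and 4.03% higher. Some called markers were under 1 FPKM in the trans-heterozygotes, such as d-cup, listed at 0 in prepupae. The tests of such markers depended on a higher w1118 level. 23 of the 34 were called lower at all 3 stages, against 8.06% of all genes tested at every stage. The median log2 fold changes were -3.18, -2.79 and -2.60. Their summed FPKM was 280 in trans-heterozygotes and 1595 in w1118 wandering larvae, 362 and 2100.3 in stationary larvae, and 297 and 1703 in prepupae, or 17.5%, 17.2% and 17.4% of w1118. The corresponding percentages of betaTub85D, 16.0%, 20.4% and 18.5%, lie near those of the sum. That sum includes the uncalled merged entry of janA and janB, with 90.5 of the 280 FPKM in trans-heterozygous wandering larvae. The median marker kept less than betaTub85D at each stage, 11.1%, 14.7% and 14.5%.

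Within the testis list the levels left in the trans-heterozygotes ranged widely. loopin-1, which encodes an abundant sperm protein, had 11.4 FPKM in trans-heterozygotes against 154 FPKM in w1118 wandering larvae and was called lower at all 3 stages. ocn, a gene of late sperm development, had 63.4 against 211 FPKM and was also called lower at all 3 stages. The merged entry of janA and janB, of which janB is the testis gene, had 90.5 against 133 FPKM and was not called at any stage. d-cup, transcribed late in spermatid development, was listed at 0 in trans-heterozygous prepupae and had 3.81 FPKM in w1118 prepupae. Beside that merged entry, the markers nearest to their w1118 levels were aly, can, mia and sa, regulators that spermatocytes need to switch on the genes of meiosis and sperm formation, named here after their values were seen. In wandering larvae aly had 1.66 FPKM in trans-heterozygotes and 2.45 FPKM in w1118, can 3.47 and 3.44 FPKM, mia 3.96 and 3.39 FPKM and sa 1.32 and 3.93 FPKM, and none of these 4 genes was called at any stage. The median marker kept 11.1%, 14.7% and 14.5% of its w1118 level, and 21, 20 and 19 of the 34 markers kept a smaller percentage than betaTub85D. For alphaTub85E those counts were 26, 21 and 28.

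**Figure D4:**
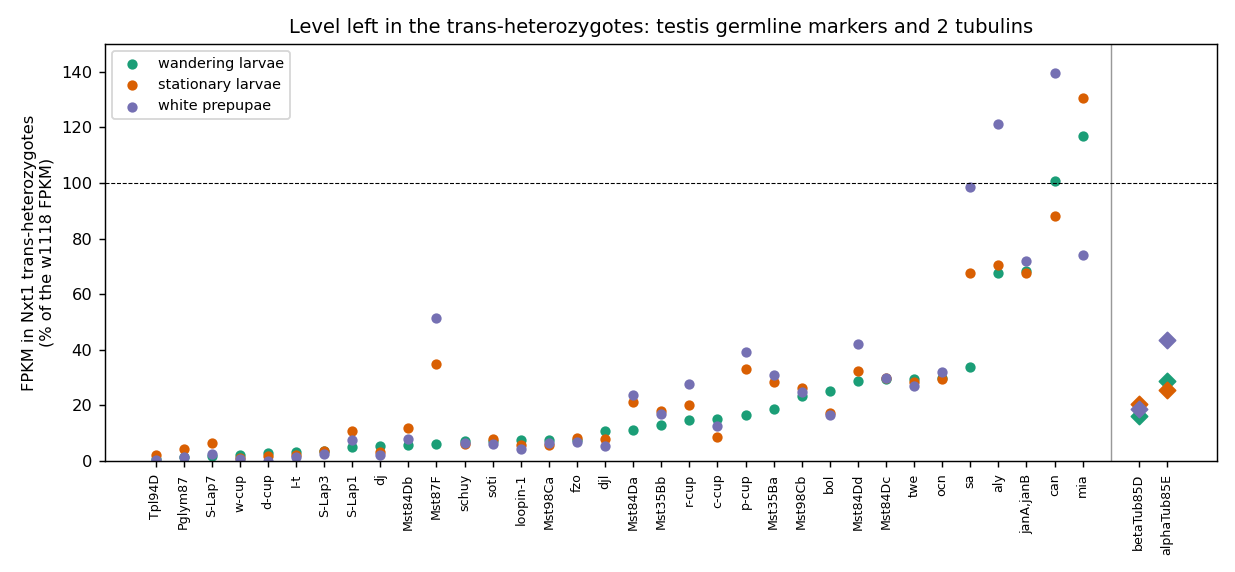
FPKM in Nxt1 trans-heterozygotes as a percentage of the w1118 FPKM at each stage, for the 34 testis germline markers (circles, ordered by the value in wandering larvae) and, right of the line, for betaTub85D and alphaTub85E (diamonds). The dashed line marks equal levels. betaTub85D, at 16.0% to 20.4%, lies among the markers, most of which stay under 50%, and alphaTub85E lies at 25.5% to 43.6%.

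The labels do not give the sex of the animals. The male dosage compensation RNAs roX1 and roX2, which coat the male X chromosome, were looked at as a measure of male content. roX1 had 322 FPKM in trans-heterozygotes and 209 FPKM in w1118 wandering larvae, where it was called higher in the authors' deposited table (q = 0.0449), 350.0 and 260.0 FPKM in stationary larvae, with 255 and 208 FPKM in prepupae. roX2 had 42.3 and 40.6 FPKM, 28.1 and 38.3 FPKM, and 20.7 and 44.0 FPKM at the 3 stages in turn, and was called at none. The pair did not move one way: roX1 was above its w1118 level at every stage, and roX2 was below its w1118 level in stationary larvae and prepupae. The part of male content in the fall of betaTub85D was not tested. Of these RNAs 1 of 2 was called higher in wandering larvae, against 2.29% of all tested genes. Their summed FPKM was 364 and 249.8, 378 and 298, and 275 and 252.

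Few markers were tested for the somatic cells in which alphaTub85E has been described. The background was 9.49%, 13.2% and 12.9% of all tested genes called lower and 2.29%, 4.7% and 4.03% higher. Of 3 tested cyst cell and somatic gonad markers, 0, 1 and 1 were called lower at the 3 stages, in each case abd-A, a Hox gene also active across the abdomen, with 26.3 FPKM in trans-heterozygotes and 59.2 FPKM in w1118 stationary larvae. eya (8.17 and 6.19 FPKM) and zfh1 (25.6 and 30.1 FPKM) were not called at any stage. The summed FPKM of this list was 59.8 in trans-heterozygotes and 71.2 in w1118 wandering larvae, 61.5 and 97.0 in stationary larvae, and 83.4 and 100.7 in prepupae. tj, the marker most specific to somatic gonad cells, was too low for a test, at 0.877 FPKM in trans-heterozygotes and 0.624 FPKM in w1118 wandering larvae. 0 of 4 tendon cell markers were called at any stage, and their summed FPKM was 75.2 and 82.7, 107 and 125, and 189 and 162. Of these, how had 53.2 FPKM in trans-heterozygotes and 55.6 FPKM in w1118 stationary larvae, slow 36.2 and 47.6 FPKM, and Tsp 15.4 and 20.3 FPKM.

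Chordotonal and ciliated neuron markers were at the lower edge of detection. Of 7 entries 1, 3 and 1 were tested at the 3 stages and 0 were called, with summed FPKM of 5.39 and 4.61, 5.70 and 4.70, and 5.98 and 5.16 in trans-heterozygotes and w1118. The most abundant were ato, a proneural gene, at 2.44 and 1.75 FPKM in stationary larvae, unc at 1.32 and 0.796 FPKM and rempA, an intraflagellar transport gene, at 1.17 and 1.18 FPKM. Of the neuronal markers 0 of 9, 0 of 9 and 0 of 8 tested were called, with summed FPKM of 212 and 202, 252 and 239, and 261 and 247. Among all tested genes 9.49%, 13.2% and 12.9% were called lower and 2.29%, 4.7% and 4.03% higher. Csp, a synaptic vesicle chaperone gene, had 79.7 FPKM in trans-heterozygotes and 75.8 FPKM in w1118 stationary larvae, Appl 27.3 and 34.7 FPKM and fne 39.8 and 35.1 FPKM. The part of each of these cell types in the fall of alphaTub85E was not tested.

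The remaining tubulin genes showed 1 call. The called gene was under 1 FPKM in the trans-heterozygotes, so its test depended on a higher w1118 level. CG32396, listed as betaTub65B in the RefSeq gene table, had 0.347 FPKM in trans-heterozygotes and 7.43 FPKM in w1118 wandering larvae, 0.584 and 9.73 FPKM in stationary larvae, with 0.480 and 6.50 FPKM in prepupae. Its log2 fold changes in the authors' deposited tables were -4.42 ± 1.65 (q = 0.0607), -4.06 ± 1.30 (q = 0.0132) and -3.76 ± 1.62 (q = 0.0995), so that only stationary larvae passed. The merged entry of CG7785 and the alpha-tubulin-like gene CG7794 had 6.16 and 12.8 FPKM, 10.5 and 15.7 FPKM, and 10.5 and 13.2 FPKM, and was not called. gammaTub23C, the general gamma-tubulin, which nucleates microtubules, had 17.2 FPKM in trans-heterozygotes and 17.8 FPKM in w1118 wandering larvae, 15.6 and 19.7 FPKM in stationary larvae, with 15.7 and 21.0 FPKM in prepupae, and was not called. The maternal gammaTub37C, between 0.0756 and 0.503 FPKM, was not tested. Of the 3 tested genes of this list 0, 1 and 0 were called lower, against 9.49%, 13.2% and 12.9% of all tested genes. The medians of the list were -1.06, -0.58 and -0.42.

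Genes that make or fold tubulin complexes showed few calls. The background was 9.49%, 13.2% and 12.9% of all tested genes called lower and 2.29%, 4.7% and 4.03% higher, so few were to be found in lists this short. Of the gamma-tubulin ring complex 0 of 5 genes were called at each stage, with median log2 fold changes of 0.29, 0.28 and 0.19, and Grip84, its most abundant member, had 13.6 FPKM in trans-heterozygotes and 11.2 FPKM in w1118 stationary larvae. Of the TRiC chaperonin and tubulin cofactor genes 0 of 13, 0 of 12 and 1 of 13 were called lower and 0 higher, with medians of 0.15, 0.05 and 0.05. The call was T-cp1, a chaperonin subunit, in prepupae, at 84.1 FPKM in trans-heterozygotes and 115 FPKM in w1118 (q = 0.0492 in the authors' deposited table). The merged entry of the cofactor gene CG1890 and CG1896 had 121 and 199 FPKM in prepupae and was not called.

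Tubulin-modifying enzymes were lower in part. 4 of 8 tested entries were called lower at all 3 stages, against 8.06% of all genes tested at every stage, and 0 were called higher, with median log2 fold changes of -0.74, -0.75 and -0.57. Of the entries called lower, CG32238 and CG17003 were under 1 FPKM in the trans-heterozygotes, so their tests depended on a higher w1118 level. CG32238, a tubulin tyrosine ligase-like gene listed as TTLL1B in the RefSeq gene table, had 0.363 FPKM in trans-heterozygotes and 8.94 FPKM in w1118 wandering larvae, 0.385 and 10.6 FPKM in stationary larvae, with 0.242 and 9.32 FPKM in prepupae. CG17003, listed there as lky, had 0.181 and 4.11 FPKM, 0.595 and 4.87 FPKM, and 0.182 and 4.10 FPKM. The other enzyme genes called lower were TTLL3B, a tubulin glycylase gene, at 3.74 FPKM in trans-heterozygotes and 12.5 FPKM in w1118 stationary larvae, and CG5987, listed as TTLL6B and named here after its values were seen, at 7.18 and 14.5 FPKM. Sirt2, a deacetylase gene and the most abundant of the list, had 30.6 and 33.6 FPKM in stationary larvae and was not called.

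Axonemal dynein heavy chains drive the beat of cilia and flagella. All 3 of them that could be tested were called lower at every stage, again against 8.06% of all genes, and 5 of the 8 on the list were too low for a test. In the trans-heterozygotes Dhc36C and Dhc16F were near the level of the untested Dhc62B, so their tests depended on a higher w1118 level. The count of 3 of 3 is therefore no separate result about the list. Dhc36C had 0.287 FPKM in trans-heterozygotes and 4.25 FPKM in w1118 stationary larvae, Dhc16F had 0.142 and 2.21 FPKM, and Dhc98D had 1.46 and 3.30 FPKM. Dhc62B, not tested, had 0.180 and 1.29 FPKM. The summed FPKM of the list was 1.58 in trans-heterozygotes and 9.89 in w1118 wandering larvae, 2.23 and 13.7 in stationary larvae, and 1.80 and 10.9 in prepupae, and the tested genes had medians of -3.77, -3.89 and -3.61.

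Cytoplasmic dynein and dynactin genes, which serve transport towards microtubule minus ends, showed few calls. Of 9 tested genes 1 was called lower at each stage, and 0, 0 and 1 were called higher, with medians of 0.01, 0.03 and -0.07. Over all tested genes 9.49%, 13.2% and 12.9% were called lower and 2.29%, 4.7% and 4.03% higher, so the counts of this list are near the background. The gene called lower was Cdlc2, a dynein light chain closely related to ctp, with 12.0 FPKM in trans-heterozygotes and 36.3 FPKM in w1118 wandering larvae, 12.6 and 47.7 FPKM in stationary larvae, with 11.2 and 37.5 FPKM in prepupae. ctp, the general light chain, had 245 and 246 FPKM, 261 and 246 FPKM, and 226 and 239.7 FPKM and was not called. robl, another light chain, was called higher in prepupae, at 46.2 FPKM in trans-heterozygotes and 23.4 FPKM in w1118. In stationary larvae it had 39.3 and 24.9 FPKM and was not called.

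Among the kinesins, 2, 3 and 4 of 22 tested were called lower and 0 higher, with medians of -0.04, -0.29 and -0.28. These counts are near the background of 9.49%, 13.2% and 12.9% of all tested genes called lower. Klp59D and Klp59C, kinesin-13 genes whose products depolymerize microtubules, were called lower at all 3 stages. Klp59D had 1.50 FPKM in trans-heterozygotes and 24.7 FPKM in w1118 wandering larvae, 1.89 and 37.3 FPKM in stationary larvae, with 0.921 and 26.9 FPKM in prepupae. Klp59C had 1.64 and 20.8 FPKM, 1.49 and 27.5 FPKM, and 1.47 and 22.5 FPKM at the 3 stages in turn. Klp10A, the general kinesin-13 gene, named here after its values were seen, had 49.0 and 57.1 FPKM in stationary larvae and was not called. cana, a relative of the centromere motor CENP-E, was called lower in stationary larvae (16.6 and 23.9 FPKM) and prepupae (16.3 and 24.1 FPKM). The fourth call in prepupae was Khc, the kinesin-1 heavy chain, at 60.7 and 82.0 FPKM, also named after its values were seen. Klc, the most abundant uncalled kinesin gene, had 67.6 and 98.0 FPKM in stationary larvae.

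Of 19, 18 and 19 tested genes for microtubule-associated and severing proteins, 1 was called lower at each stage and 0, 0 and 1 higher, with medians of -0.06, -0.09 and -0.13, so that the share called lower was under that of all tested genes. The gene called lower was chb, the fly CLASP, which stabilizes growing ends, with 16.0 FPKM in trans-heterozygotes and 30.8 FPKM in w1118 wandering larvae, 18.5 and 39.9 FPKM in stationary larvae, with 22.1 and 38.7 FPKM in prepupae. Eb1, the plus-end tracking protein gene, was called higher in prepupae, at 285 FPKM in trans-heterozygotes and 208 FPKM in w1118. Jupiter, the most abundant, had 371 and 495 FPKM in prepupae and was narrowly not called (q = 0.0508 in the authors' deposited table). In stationary larvae, at 250 FPKM in trans-heterozygotes and 414 FPKM in w1118, the authors' test of Jupiter was not completed. Among all tested genes 9.49%, 13.2% and 12.9% were called lower and 2.29%, 4.7% and 4.03% higher. Of 14 cell cycle genes 0, 0 and 1 were called higher and 0 lower, with medians of 0.17, 0.12 and 0.11. The call was Mcm5, a replication helicase subunit, at 10.2 FPKM in trans-heterozygotes and 4.92 FPKM in w1118 prepupae, while CycA, the most abundant uncalled gene, had 54.4 and 58.4 FPKM.

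**Figure D5:**
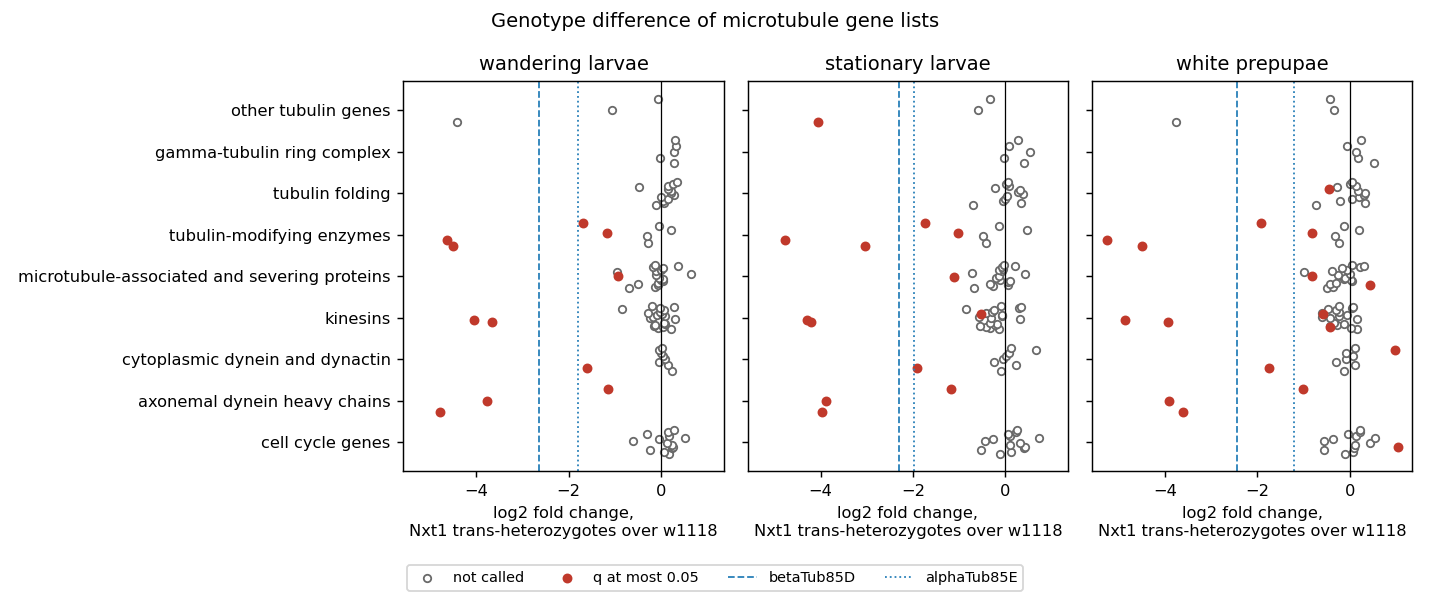
log2 fold change (Nxt1 trans-heterozygotes over w1118, from the authors' deposited tables) of every tested gene of 9 microtubule gene lists at each stage, filled where q was at most 0.05, with lines at the values of betaTub85D (dashed) and alphaTub85E (dotted). Filled points left of 0 number 4 of 8 at each stage among the modifying enzymes and 2, 3 and 4 of 22 among the kinesins. Of the 8 listed axonemal dyneins only 3 were tested, and all 3 are filled left of 0. Among all tested genes 9.49%, 13.2% and 12.9% were called lower.

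The genes whose profile over the 6 pooled values was most like that of betaTub85D were CG10252, CG5762 and CG31988, at distances of 0.287, 0.308 and 0.312 on the log2(FPKM + 1) scale among 2947 genes of similar level. CG10252 had 14.2 FPKM in trans-heterozygotes and 115 FPKM in w1118 wandering larvae, 25.6 and 136 FPKM in stationary larvae, with 20.3 and 112 FPKM in prepupae. For alphaTub85E they were CG31320, CG31467 and CG32459, at distances of 0.192, 0.260 and 0.350 among 4053 genes. CG31320 had 2.51 and 9.26 FPKM, 3.46 and 11.2 FPKM, and 4.69 and 10.2 FPKM at the 3 stages in turn. Both sets were picked for likeness, so their fall is no separate result.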

How the data were processed

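Per the labels' protocols, RNA of whole animals was extracted with Trizol and ScriptSeq libraries were sequenced as paired ends. Bowtie 1.1.1, Cufflinks and Cuffdiff are named in the submitters' processing notes. Settings and the genome build are not named there. The authors deposited 6 tables per stage, with FPKM pooled over the 3 samples of a group, the log2 fold change, the p-value and q-value and, per the file headers, a test statistic, or in usage tables a divergence, both scores. Counts and depth are unknown. The labels do not say that the 3 samples of a group came from separate cultures, so the p-values measure the spread between samples, which may be technical.

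Entries with status OK and a deposited q of at most 0.05 were called. The standard error is the size of the log2 fold change over that of the deposited test statistic. Taken as a normal deviate, this statistic gave the deposited p-value to within 1% plus a small fixed tolerance in 98.1%, 98.6% and 98.2% of tested genes. The smallest p-values meet that fixed tolerance whatever their relative error. Stage differences used a normal test. It was run on simulated data drawn as normal with these same standard errors, which cannot show whether the standard errors are right. Python 3.11.15, pandas 2.3.3, numpy 2.4.6 and scipy 1.17.1 were used.

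The isotypes and all gene lists were chosen with earlier results of these data known. All isotypes and other tubulin genes are named, and from each microtubule list up to 3 called genes with the largest log2 fold change and the most abundant uncalled gene. From each marker list the 3 with the highest FPKM and those listed at 0 are named. Likeness is the Euclidean distance over 6 centred log2(FPKM + 1) values, among genes tested at every stage with a mean within 1 of the isotype's. Alternatives were other thresholds, pseudocounts, scaling and tables.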

Additional observations from a re-analysis of the deposited data

How the results depend on the processing

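No paired analysis was possible because the deposited tables hold pooled values and none per replicate. Fits without 1 replicate and with a replicate block were therefore not run. Under both pseudocounts, centring on the median, and sums of isoforms, no isotype's log2 fold change turned its direction or moved out of its error, and the same held for betaTub85D's own isoform, an alternative chosen after seeing the data. The isotypes called lower numbered 1 in place of 2 at each stage without merged entries, through start-site groups and through isoforms, because betaTub85D then had no test. No other count of isotypes or isoforms moved by over 1.5 times.

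Counts over all genes called higher moved to 165 in wandering larvae and 269 in prepupae at a q of 0.01, and to 93 in wandering and 286 in stationary larvae through start-site groups, against 250, 434 and 523 at the chosen settings for wandering larvae, prepupae and stationary larvae. Counts of short lists moved by a few genes, and the cause was not tested. At a q of 0.01 in wandering larvae, 2 modifying enzymes and 0 cytoplasmic dynein genes were lower. At that threshold 0 other tubulin genes were lower in stationary larvae, and 0 folding genes were lower and 0 microtubule-associated or cytoplasmic dynein genes higher in prepupae. At a q of 0.1 there were 2 other tubulin genes lower and 1 microtubule-associated gene higher in wandering larvae, and 1 cell cycle gene higher in stationary larvae. In prepupae that threshold gave 1 other tubulin gene, 2 folding genes, 2 microtubule-associated genes and 7 kinesins lower. Through start-site groups, 3, 0 and 2 microtubule-associated genes were lower at the 3 stages and 0 higher in prepupae. In stationary larvae 1 ring complex gene, 1 folding gene, 1 kinesin and 1 cell cycle gene were lower and 1 folding gene higher. In prepupae 1 ring complex gene and 1 cell cycle gene were lower and 1 ring complex gene higher.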
